A study of Mus musculus with 22 samples.

Results

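Whether the activator used for reversion left a lasting difference in gene expression was examined in 5 reverted lines of mouse cells, out of 22 libraries in the series. The 5 were chosen by their labels alone. All came from Oct4GIP, a primed mouse epiblast stem cell (mEpiSC) line of 129/Ola background that carries an Oct4-driven GFP and puromycin resistance transgene. All were kept for 16 days with an AMP-activated protein kinase (AMPK) activator and then expanded for 10 passages in 2iL, the MEK and GSK3 inhibitors with leukaemia inhibitory factor (LIF). These samples are written d16+10p. On one side stood A769662, A769662+LIF and metformin+LIF (3 libraries), and on the other AICAR and AICAR+LIF (2 libraries), where "+LIF" marks LIF during the 16 days. Thus all 5 lines had LIF in 2iL during expansion. The paper's Results give Ndiff227 as the medium of this step. Its Methods allow Basal medium or Ndiff227, and the medium of each sequenced line is not stated. RNA was measured in bulk by poly(A) RNA-seq, and each condition is 1 library. The activator, its LIF and the separate reversion culture therefore cannot be told apart for any one library, and p-values measure the spread among these libraries.

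The 3 compounds reach AMPK by different routes. AICAR is taken up through nucleoside transporters and phosphorylated by adenosine kinase to ZMP, a purine intermediate that mimics AMP. A769662 binds AMPK directly, with preference for complexes that hold the β1 subunit (Prkab1). Metformin enters through organic cation transporters and inhibits respiratory complex I, which raises AMP. AMPK itself is a sensor of cellular energy that favours catabolism and autophagy over biosynthesis. The naive state is held by a network of factors that includes Nanog, Esrrb, Klf2, Klf4 and Tfcp2l1. The primed state, that of the post-implantation epiblast, lacks most of these and expresses genes such as Dnmt3b, Zic2, Otx2 and Fgf5.

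The 5 libraries held 1689495 (AICAR) to 3380314 (metformin+LIF) counts, with 19339 to 22186 genes detected, and 3 counts corresponded to 0.931 to 1.68 CPM (the count scaled to a common library total). Levels below are CPM scaled by TMM (a correction for library composition), in the order AICAR and AICAR+LIF, then A769662, A769662+LIF and metformin+LIF. After scaling, the median gene of the AICAR library was still at -0.0869 relative to the mean of the 5 on the log2 scale, against -0.00106 to 0.0526 in the other libraries. The summed level of 26 naive markers was 7201 to 8682 CPM in the 5 libraries, 8739 in the library of naive mESCs and 1319 in primed Oct4GIP cells. The naive mESCs are Rex1-GFP cells, a separate line whose genomic background, according to the paper, differs from that of the AICAR-reverted cells. Line and state therefore cannot be told apart wherever naive mESCs are compared below. The summed level of 18 fibroblast markers was 182 to 325 CPM, against 260 in naive mESCs, and of the defining feeder markers Lum was at 0 in all 5 libraries, Dcn and Postn had at most 2 counts and Col1a1 had 3 to 10. In bulk RNA, fewer cells of a type and less RNA per cell cannot be told apart.

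The naive network was expressed in all 5 lines, and none of the 11 naive and pluripotency factors named by the study passed the test of a difference between the sides (edgeR, 0 of 11 past an adjusted p of 0.05). Nanog was at 471 and 794 CPM after AICAR and AICAR+LIF and at 774, 652 and 737 CPM after A769662, A769662+LIF and metformin+LIF. Pou5f1, which encodes OCT4, was at 695 and 863 CPM against 886, 922 and 747 CPM. In both genes the AICAR library was the lowest and the sides overlapped. Zfp42 (REX1) was at 261 and 456 CPM against 492, 405 and 446 CPM. Esrrb, an orphan nuclear receptor of the network, was at 655 and 676 CPM against 585, 644 and 699 CPM. The sides overlapped in both, and in Zfp42 the AICAR library again stood below the other 4. Klf2 was at 158 and 236 CPM against 254, 237 and 253 CPM, so that the 3 lines of A769662 or metformin lay above both AICAR lines, by 0.28 ± 0.16 (SE) on the log2 scale. Tfcp2l1, a target of LIF signalling, had the opposite order, at 1508 and 1487 CPM against 1451, 1310 and 1285 CPM, with a log2 difference of -0.21 ± 0.11. Neither difference passed the test. The germ cell gene Dazl varied most among the 11 genes, from 49.1 CPM (A769662+LIF) to 223 CPM (A769662), with AICAR at 204, AICAR+LIF at 117 and metformin+LIF at 150.3 CPM.

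**Figure D1:**
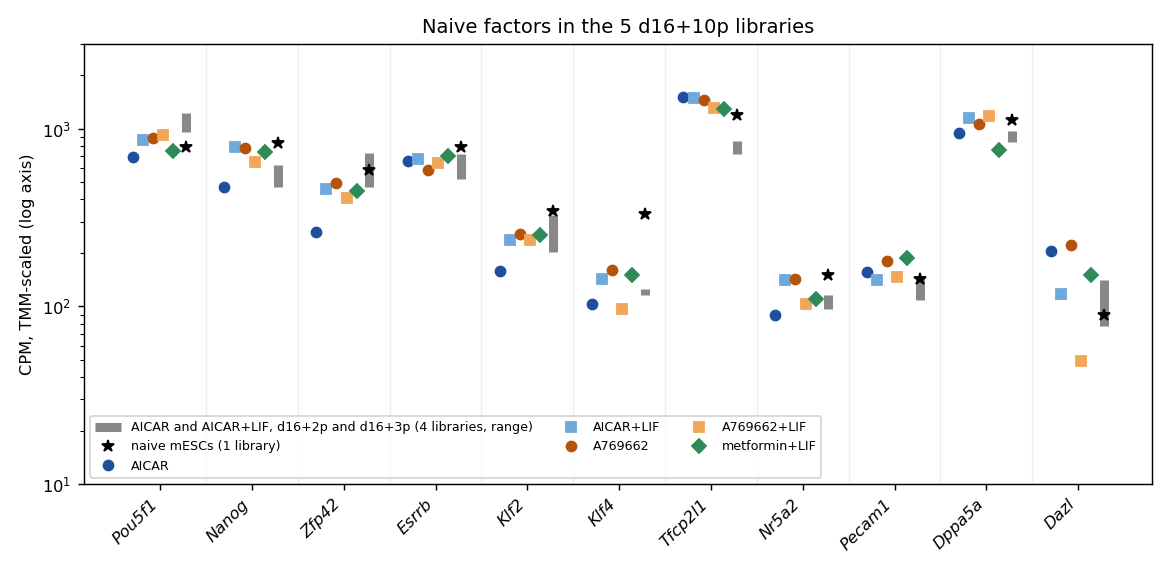
Levels of the 11 factors in CPM (log axis) in the 5 d16+10p libraries (coloured points), in naive mESCs (star) and over the 4 AICAR libraries of 2 or 3 passages (grey bar, lowest to highest). The coloured points of both sides intermingle for most genes, Dazl spreads from 49.1 to 223 CPM, and all 5 lines lie above the early bar for Tfcp2l1 (717 to 851 CPM).

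Across the transcriptome no gene separated the sides after adjustment. Of 13574 genes tested with edgeR's quasi-likelihood test, 0 (0%) had a Benjamini-Hochberg adjusted p under 0.05, and the smallest adjusted p was 0.884. At an unadjusted p under 0.05 there were 531 genes (3.91%), of which 269 (1.98%) were higher and 262 (1.93%) lower in A769662 or metformin. limma voom called 0 genes (488 at an unadjusted p under 0.05) and DESeq2 called 3, all higher in A769662 or metformin (314 at an unadjusted p under 0.05). The 3 were Lin28a (DESeq2 adjusted p = 0.00215), Ptpn14 and Col18a1 (both 0.0077). Without the filter on low counts edgeR called 105 genes, 67 higher and 38 lower, and 104 of these were among the 13574. Without the filter its prior degrees of freedom were infinite, so that every gene was given the same trended spread, whereas with the filter they were 4.97. In 1667 genes (12.3%) all 3 lines of A769662 or metformin lay above both AICAR lines, and in 899 (6.62%) all 3 lay below. The AICAR library's median of -0.0869 moves in the direction of the larger count, and its part in it was not tested.

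The genes with the smallest p between the sides did not pass the test in edgeR and are given as values. Lin28a (ENSMUSG00000050966, GRCm38 chromosome 4, 134003330 to 134018841) encodes an RNA-binding protein that blocks maturation of let-7 miRNAs. It was at 49.1 and 54.9 CPM after AICAR and at 109, 113 and 131 CPM after A769662, A769662+LIF and metformin+LIF, a log2 difference of 1.12 ± 0.15 (SE). The AICAR lines were close to naive mESCs (42.6 CPM), the other 3 lay above them, and the 4 AICAR libraries of 2 or 3 passages were higher than all 5, at 306 to 390 CPM. Ptpn14 (chromosome 1, 189728268 to 189876695), a tyrosine phosphatase that restrains YAP, was at 12.3 and 11.8 CPM against 38, 34.6 and 63.7 CPM, with 27.2 CPM in naive mESCs and 55.2 to 130 CPM at 2 or 3 passages. Manba (chromosome 3, 135485611 to 135571404), a lysosomal mannosidase, was at 15.1 and 16.8 CPM against 37.4, 33.5 and 35.7 CPM. In both genes the 2 AICAR lines agreed within 2 CPM and stood apart from the other 3. Col18a1, which encodes a basement membrane collagen, was at 69.8 and 53.3 CPM against 134, 251 and 158 CPM. The p38-activated kinase Mapkapk3 was at 21.8 and 16.4 CPM against 41.2, 37.3 and 43.8 CPM. The ciliary transport gene Wdr35 was at 24.6 and 27.3 CPM against 54.7, 46.0 and 72.3 CPM. The other 6 of the 12 genes on this side, Efs, Pitpnm2, Ece1, Panx1, P2rx7 and Zic2, had log2 differences of 1.07 to 1.75, and Panx1 and P2rx7 are an ATP release channel and an ATP-gated channel.

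The 12 genes that lay lower in A769662 or metformin were led by Ckmt1 (chromosome 2, 121357714 to 121363737), a mitochondrial creatine kinase. Ckmt1 was at 65.3 and 74.6 CPM after AICAR against 39.3, 37.7 and 33.5 CPM, a log2 difference of -0.98 ± 0.16, with 56.7 CPM in naive mESCs and 9.16 to 13.5 CPM at 2 or 3 passages. Here the AICAR lines were the farther from the early AICAR libraries. Tes, a focal adhesion protein, was at 48.6 and 74.3 CPM against 35.2, 26.3 and 29.5 CPM. Sfrp1, a secreted Wnt antagonist, was at 123 and 146 CPM against 45.2, 75.3 and 30.1 CPM, with 166 CPM in naive mESCs and 16.3 to 48.1 CPM at 2 or 3 passages. Padi2, an arginine deiminase, was at 11.7 and 18.7 CPM against 4.08, 4.95 and 1.24 CPM, with 37.8 CPM in naive mESCs and 1.09 to 2.46 CPM at 2 or 3 passages. For Sfrp1 and Padi2 the metformin+LIF line was the lowest and lay within the early range. The remaining 8 genes were CT010467, Tex2, Gstm3, Jdp2, Plekhb2, Lratd2, Ly75 and Nnt, with log2 differences of -1.51 to -0.46, the smallest of them in Ly75, an endocytic receptor (341 and 382 CPM against 281, 274 and 262 CPM). In the AICAR and AICAR+LIF lines of 129/MSM, Ckmt1 was at 16.6 and 33.7 CPM and Tes at 7.29 and 13.9 CPM. Sfrp1 was high there, at 230 and 287 CPM, as was Ly75, at 342 and 383 CPM.

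**Figure D2:**
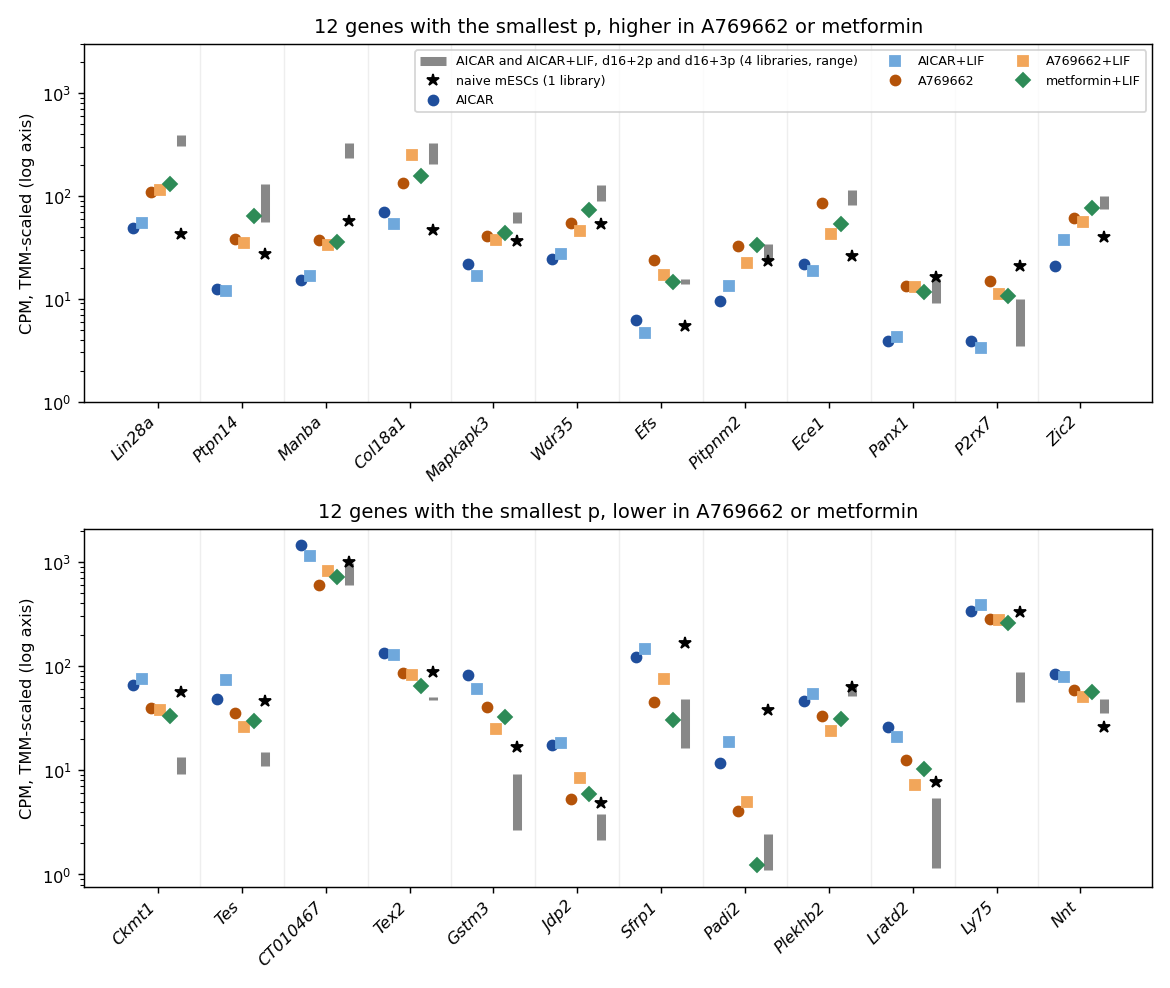
Levels in CPM (log axis) of the 12 genes per direction with the smallest unadjusted p and no overlap of the sides, in the 5 d16+10p libraries, naive mESCs (star) and the 4 AICAR libraries of 2 or 3 passages (grey bar, lowest to highest). The AICAR and AICAR+LIF points stand below the other 3 in the upper panel and above them in the lower panel by construction, and for Lin28a and Manba the early bar lies above all 5 lines.

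Gene lists of primed and naive identity showed the following. None of their members passed the adjusted test, so their counts are given at an unadjusted p under 0.05, beside 1.98% higher and 1.93% lower over all genes, and their medians beside -0.0024 over all genes. Of 14 tested primed or formative epiblast genes, 6 were higher in A769662 or metformin and 0 lower, with a median log2 difference of 0.66. The 6 were Zic2, Zic5, Dnmt3l, Lefty1, Nodal and Grhl2. Of all 14 log2 differences, 11 were above 0 and 3 below, the lowest at -1.45. Over all 13574 genes, 6729 were above 0 and 6845 below. Zic2, a zinc finger factor of the primed epiblast, was at 20.7 and 37.5 CPM against 60.6, 55.9 and 77.0 CPM, and the AICAR library had lower levels over the whole run of chromosome 14 that holds Zic2 and Zic5, as given further on. Dnmt3l, the cofactor of the de novo DNA methyltransferases, was at 1.68 and 2.63 CPM against 5.03, 38.4 and 22.4 CPM, with 3.20 CPM in naive mESCs and 318 to 384 CPM at 2 or 3 passages. Lefty1, an inhibitor of Nodal, was at 31.3 and 25.3 CPM against 39.0, 60.1 and 77.3 CPM. Dnmt3b, a de novo methyltransferase, was at 78.7 and 131 CPM against 108, 226 and 231 CPM, and the sides overlapped. For Dnmt3b the lines without LIF in the 16 days (78.7 and 108 CPM) lay below all those with it. The lines that were highest for Dnmt3l and Dnmt3b were A769662+LIF and metformin+LIF, and A769662 alone lay near the AICAR lines. In primed Oct4GIP cells Dnmt3b was at 242 CPM and Zic2 at 116 CPM. By contrast, Fgf5 had 4 counts in A769662 and 0 in the other 4 libraries, and Otx2 was at 1.12 to 5.59 CPM against 84.8 CPM in primed Oct4GIP cells. The summed list was at 413 and 470 CPM against 551, 784 and 821 CPM, with 684 CPM in naive mESCs and 2194 CPM in primed Oct4GIP cells, so that A769662+LIF and metformin+LIF lay above naive mESCs and the other 3 lines below. Of 26 naive genes, 2 were higher (Dppa2, Dppa4) and 1 lower (Tcl1), with a median of 0.07. Dppa2, a chromatin factor of early embryos, was at 46.4 and 68.4 CPM against 80.4, 85.2 and 99.7 CPM, and Tcl1, an AKT coactivator, at 109 and 127 CPM against 93.9, 72.3 and 57.1 CPM. The LIF-STAT3 list had 0 higher and 2 lower of 18 (Bcl3, Jak2), a median of -0.14 and 14 of 18 log2 differences below 0.

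Among lists of the activators' own routes, only that of AICAR entry and purine handling held genes past an unadjusted p of 0.05 (3.91% over all genes). Of 15 tested AMPK subunits and upstream kinases, 0 were higher and 0 lower at an unadjusted p under 0.05 in edgeR, with log2 differences of -0.33 to 0.42. The catalytic subunit gene Prkaa1 was at 48.6 and 70.4 CPM against 58.4, 54.8 and 48.1 CPM. Prkab1, whose product A769662 prefers, was at 49.1 and 46.7 CPM against 40.5, 51.0 and 44.1 CPM. The sides overlapped in both. Of 20 tested genes of AICAR entry and purine handling, 3 were higher (Nt5c2, Adk, Impdh1) and 1 lower (Ampd3). The median was 0.14 and 18 of 20 log2 differences were above 0, beside 6729 of 13574 over all genes. Adk, the kinase that makes ZMP, was at 17.9 and 20.1 CPM after AICAR against 24.2, 30.1 and 36.3 CPM, with 28.2 CPM in naive mESCs and 37.9 to 45 CPM at 2 or 3 passages. The AICAR lines were the lowest for Adk, and Ampd3, an AMP deaminase, had the opposite order (16.8 and 13.2 CPM against 8.48, 5.71 and 5.59 CPM). Of 36 nuclear complex I subunits, the enzyme that metformin inhibits, 0 were higher and 0 lower, and the median was 0.04. Metformin transport had 3 tested genes, none past an unadjusted p of 0.05.

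Energy metabolism, autophagy and cell cycle lists were counted in the same way. The mitochondrially encoded transcripts summed to 15819 and 21498 CPM against 23043, 13662 and 15086 CPM, so that the sides overlapped and AICAR+LIF and A769662 were the highest. Of 13 such genes, 1 (mt-Nd6) was lower at an unadjusted p under 0.05. Of 23 glycolysis genes, 2 were lower, the hexokinases Hk1 (264 and 291 CPM against 248, 179 and 170.1 CPM) and Hk2 (250.4 and 230.4 CPM against 212, 192 and 167 CPM), and the median was 0.03. Of 29 autophagy and lysosome genes, 0 were higher and 3 lower (Mitf, Ctsl, Lamp2), with a median of -0.16. Of 26 p53 targets, CDK inhibitors and G1 cyclins, 5 were higher (Zmat3, Ccnd2, Bbc3, Rb1, Trp53inp1) and 0 lower, with a median of 0.27. The p53 target Zmat3 was at 88.8 and 95.0 CPM against 193, 116 and 192 CPM, and Bbc3, which encodes the apoptosis inducer PUMA, at 5.58 and 9.86 CPM against 27.0, 11.4 and 21.4 CPM. In both, the A769662+LIF line lay nearest to the AICAR lines. The p38 list had 2 higher (Mapkapk3, Gadd45a) of 14. The lists of cholesterol and fatty acid synthesis, the integrated stress response, ERK targets, Wnt targets, hypoxia, one-carbon metabolism, X dosage, 2-cell-like genes, feeder markers and lineage markers had 0 genes in either direction.

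In imprinted genes, whose expression depends on parental DNA methylation, the lines of one side differed among themselves. Of 28 tested imprinted genes, 5 were higher at an unadjusted p under 0.05 (Cd81, H19, Peg10, Zdbf2, Peg13) and 1 lower (Dio3), with a median log2 difference of 0.11. H19, a maternally expressed noncoding RNA, was at 1.68 and 0 CPM (3 and 0 counts) after AICAR and AICAR+LIF, at 0.942 CPM (3 counts) after A769662, and at 28.9 and 34.2 CPM (76 and 110 counts) after A769662+LIF and metformin+LIF. Peg10, a paternally expressed gene of retrotransposon origin, was at 36.3 and 44.1 CPM against 43.7, 137 and 133 CPM. For both genes the A769662 line lay with the AICAR lines, and the 4 AICAR libraries of 2 or 3 passages ranged from 30.3 to 207 CPM for H19 and from 240.3 to 807 CPM for Peg10. Of 17 DNA methylation genes, 2 were higher (Dnmt3l, Gadd45a), and Uhrf1, which directs maintenance methylation, was at 720.0 and 847 CPM against 660.4, 905 and 741 CPM. Of 18 tested germline genes, 1 was higher (Mageb16) and 0 lower.

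No gene passed the test for LIF during the 16 days either. With AICAR+LIF, A769662+LIF and metformin+LIF set against AICAR and A769662 in a model that also held the side, edgeR called 0 genes (0%), with 496 (3.65%) at an unadjusted p under 0.05, and DESeq2 and limma voom also called 0. Among the smallest p were Bmp7, a bone morphogenetic protein, at 43.6 and 38.3 CPM without LIF and 21.4, 14.8 and 17.4 CPM with it, and Lama1, a laminin chain, at 169 and 129 CPM without LIF and 116, 52.9 and 54.0 CPM with it. Etv1, an ETS factor, was at 20.7 and 17.9 CPM without LIF and 47.7, 36.1 and 46.9 CPM with it. Dnmt3b was also among the smallest p, at 78.7 and 108 CPM without LIF and 131, 226 and 231 CPM with it. In each of these genes the lines with LIF did not overlap those without, which goes with their choice by small p. The share of all genes without such an overlap was not counted.

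Compared activator by activator, edgeR with a term of 3 activators called 0 genes for A769662 against AICAR (0%, 335 or 2.47% at an unadjusted p under 0.05), 0 for metformin against AICAR (0%, 826 or 6.09%) and 0 for metformin against A769662 (0%, 629 or 4.63%). DESeq2 called 1, 9 and 2 genes, and both metformin comparisons rest on 1 metformin library, which had LIF, so that metformin and LIF cannot be told apart in them. The spread behind their errors comes from the AICAR and A769662 pairs, which differ in LIF, and holds none among metformin lines. The 2 comparisons with AICAR share the AICAR libraries. Fam129a (chromosome 1, 151571186 to 151721939), a stress-induced regulator of translation, was at 112 and 130 CPM after AICAR, at 79.8 and 97.8 CPM after A769662 and at 19.9 CPM after metformin+LIF. The log2 difference of metformin from AICAR was -2.68 ± 0.26 (edgeR adjusted p = 0.177). Fam129a was at 65.3 CPM in naive mESCs and at 10.8 to 12.8 CPM in the 4 AICAR libraries of 2 or 3 passages, so that the metformin+LIF line lay nearest to the latter. Ctsc, a lysosomal protease, was at 106 and 88.1 CPM after AICAR, 73.8 and 43.8 CPM after A769662 and 16.8 CPM after metformin+LIF, and at 13.7 to 20.8 CPM at 2 or 3 passages. Cyp2b23 (chromosome 7, 26665227 to 26686437), a cytochrome P450, was at 4.47 and 12.2 CPM after AICAR, at 0.942 and 1.14 CPM (3 counts each) after A769662 and at 60.5 CPM after metformin+LIF, with 45.6 to 163 CPM at 2 or 3 passages. In Fam129a, Ctsc and Cyp2b23 the metformin+LIF line stood apart from the other 4 lines.

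The closest pairs of whole profiles crossed the sides. Over the 13574 tested genes the highest Pearson correlation of log2 CPM between any pair of lines crossed the sides, at 0.974 for AICAR+LIF and A769662, and the next, at 0.964 for AICAR and A769662+LIF, crossed them too. AICAR correlated with AICAR+LIF at 0.960, and A769662 with A769662+LIF at 0.958. The lowest value was 0.947, for AICAR and metformin+LIF. Over the 27186 genes with a count, the mean was 0.979 for the 6 pairs across sides and 0.979 for the 4 pairs within sides, a difference of 0.000259 (two-sided exact permutation test over 10 assignments, p = 0.5, where the smallest p possible is 0.1). Correlation with naive mESCs was 0.934 (metformin+LIF) to 0.943 (AICAR+LIF) over the tested genes. By side the mean differed by -0.0020 over the tested genes (exact permutation p = 0.5) and by -3.0e-05 over the 27186 genes (exact permutation p = 1). Correlation with the 4 AICAR libraries of 2 or 3 passages, a comparison chosen after the data were seen, averaged 0.896 for AICAR, 0.926 for AICAR+LIF, 0.923 for A769662, 0.923 for A769662+LIF and 0.953 for metformin+LIF. The metformin+LIF range over the 4 early libraries, 0.948 to 0.958, lay above the range of each other line, and AICAR, the least deeply sequenced library, had the lowest. After thinning to 1689495 counts (25258 genes) the AICAR mean was still the lowest, at 0.946 against 0.953 to 0.965 in the other lines. By side the difference was 0.0219 over the tested genes and 0.0079 over the 27186 genes (exact permutation p = 0.6 for both). These correlations are across genes, which are not independent replicates.

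**Figure D3:**
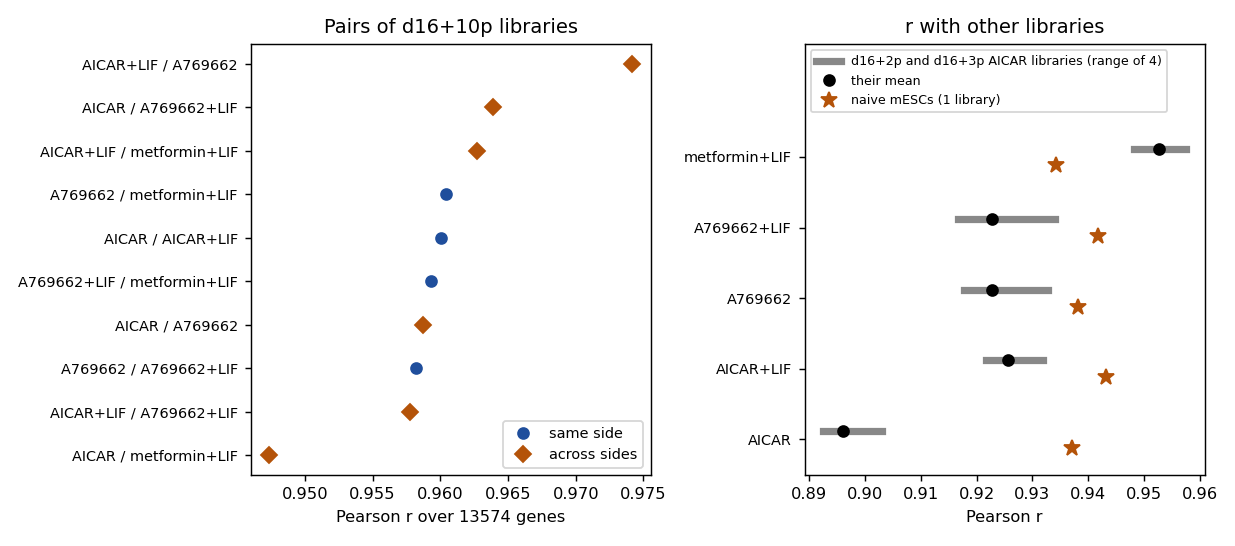
Pearson correlation of log2 CPM over 13574 genes for each pair of the 5 d16+10p libraries (left, circles within a side and diamonds across sides) and for each library with naive mESCs (star) and with the 4 AICAR libraries of 2 or 3 passages (right, dot for the mean and bar for the range). The pair AICAR+LIF and A769662 has the highest value, 0.974, and metformin+LIF has the highest mean with the early libraries, 0.953.

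Pairs of single libraries differed by more than 2-fold in a small share of genes, whether or not the activator differed. These counts have no replicate and carry no test. At a mean of at least 20 CPM, A769662 differed from AICAR in 187 of 8122 genes (2.3%), of which 163 were higher. A769662+LIF differed from AICAR+LIF in 219 of 8106 (2.7%), of which 53 were higher. Metformin+LIF differed from AICAR+LIF in 179 of 8205 (2.18%), 88 of them higher, and from A769662+LIF in 232 of 8193 (2.83%), 176 of them higher. Within one activator, AICAR+LIF differed from AICAR in 204 of 8068 (2.53%), 160 of them higher, and A769662+LIF from A769662 in 221 of 8161 (2.71%), 60 of them higher. At this level and fold, the shares of the pairs with one activator lay within the range of the pairs with different activators. At a mean of at least 50 CPM the pairs with different activators had counts of 63 to 110 genes. AICAR+LIF against AICAR had 97, within that range, and A769662+LIF against A769662 had 112, just above it.

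The pair AICAR+LIF and A769662 shared a set of genes that was low in the other 3 lines, noticed after the data were seen. Egr1, an immediate early transcription factor induced by growth factor and ERK signals, was at 1.12 and 89.8 CPM after AICAR and AICAR+LIF, and at 152, 0.761 and 0 CPM after A769662, A769662+LIF and metformin+LIF. Fos was at 1.68 and 44.7 CPM against 44.0, 1.90 and 0.931 CPM, and Fosb at 0 and 15.8 CPM against 22.9, 0 and 0 CPM. Both are subunits of the AP-1 factor. In naive mESCs Egr1, Fos and Fosb were at 179, 88.4 and 33.0 CPM. The immediate early phosphatase Dusp1 (21.2 and 46.7 CPM against 56.2, 28.9 and 26.1 CPM) and the YAP target Ccn2 (14.5 and 58.5 CPM against 82.6, 25.5 and 20.2 CPM) were likewise highest in AICAR+LIF and A769662, with smaller folds. Mid1 (chromosome X, 169685199 to 170005736), a microtubule-associated ubiquitin ligase, was at 81.0 and 568 CPM against 579, 9.13 and 3.42 CPM, with 127 CPM in naive mESCs and 592 CPM in primed Oct4GIP cells. The nuclear noncoding RNA Neat1 ran the other way, at 108 and 21.7 CPM against 25.8, 135 and 73.9 CPM. These 7 genes, with AICAR+LIF and A769662 at one end, were picked for that order. Their number therefore says nothing about immediate early genes as a set, and other such genes are not given here. The mitochondrially encoded sum was also highest in AICAR+LIF and A769662.

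Some of the differences among the 5 lines ran along chromosomes. Over the genes with a mean of at least 10 CPM, the median of chromosome 15 (398 genes), relative to the mean of the 5 lines on the log2 scale, was 0.13 and 0.08 after AICAR and AICAR+LIF and 0.14, -0.07 and -0.32 after A769662, A769662+LIF and metformin+LIF. The side difference of -0.19, with a pooled SD of 0.17, was -0.05 without metformin+LIF and -0.30 without A769662, each recomputed relative to the mean of the remaining 4 lines, and the sides overlapped. Naive mESCs were at -0.33, primed Oct4GIP cells at 0.06, and the early AICAR libraries at -0.34 to 0.19. The median of chromosome 12 (380 genes) was -0.31 after A769662 and 0.05 to 0.11 in the other 4 lines. This chromosome holds Esrrb and Jdp2, for which A769662 was the lowest of the 5 lines (585 and 5.34 CPM). It also holds Wdr35, for which A769662 was not the lowest. Chromosomes 12 and 15 were the only chromosomes whose medians spanned over 0.3 among the 5 lines. Chromosome 8 (547 genes), which holds Zfp42, Klf2 and Sfrp1, was at -0.04 to 0.09 in the 5 lines but at 0.41 in naive mESCs. Copy number was not measured, and its part in these medians was not tested.

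**Figure D4:**
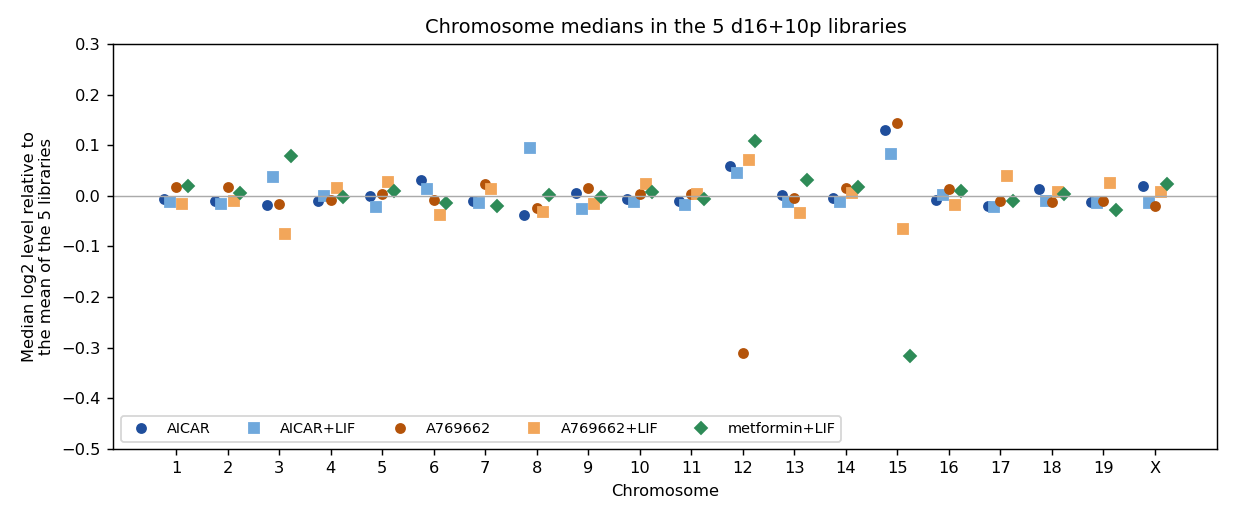
Median log2 level of each chromosome's genes (mean of at least 10 CPM) relative to the mean of the 5 d16+10p libraries, 1 point per library. Most points lie near 0, metformin+LIF stands at -0.32 on chromosome 15 and A769662 at -0.31 on chromosome 12.

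Medians of neighbouring genes also differed among the lines over shorter stretches. In 1973 windows of 15 neighbouring genes, chosen for description after the data were seen, the median window spanned 0.17 among the 5 lines on the log2 scale and 18 windows spanned over 0.8, which merged into 6 runs. The widest in genes lay on GRCm38 chromosome 3, 94443318 to 96219709, from Mrpl9 to Bola1, with 43 genes. The median of its genes relative to the mean of the 5 was -0.51 after AICAR, 0.67 after AICAR+LIF, 0.15 after A769662, -1.07 after A769662+LIF and 0.72 after metformin+LIF. The order followed neither activator nor LIF. Metformin+LIF lay above A769662+LIF in 42 of the 43 genes, with medians 3.47-fold apart. Naive mESCs were at -0.95, primed Oct4GIP cells at 0.92 and the 4 early AICAR libraries at 0.20 to 0.74. In a second line, 129/MSM, primed cells were already at -0.97. Its AICAR and AICAR+LIF d16+10p cells were at -1.12 and -1.31. The run holds Mcl1, an anti-apoptotic BCL2 relative, at 484 and 1336 CPM against 931, 328 and 1362 CPM. It also holds Setdb1, a histone H3 lysine methyltransferase, at 372 and 1021 CPM against 643, 195 and 872 CPM, and Arnt, a partner of the hypoxia-inducible factors, at 185 and 585 CPM against 393, 119.9 and 442 CPM. Mrpl9 and Snx27 at its edge were highest in metformin+LIF, at 567 and 1177 CPM against 47.5 to 175 CPM and 115 to 449 CPM in the other 4 lines.

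**Figure D5:**
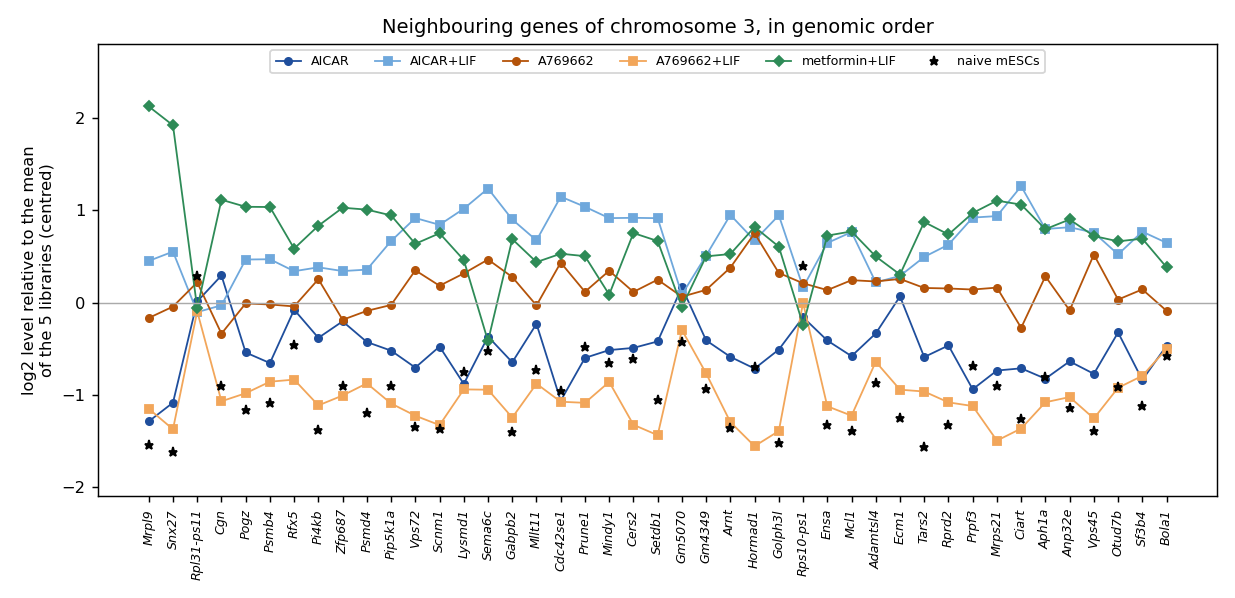
Log2 level of each of the 43 neighbouring genes of the chromosome 3 run, in order along the chromosome, relative to the mean of the 5 d16+10p libraries, with naive mESCs as stars. A769662+LIF (median -1.07) and AICAR (-0.51) run low over most of the stretch and AICAR+LIF (0.67) and metformin+LIF (0.72) run high.

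A second run on chromosome 14, 115042879 to 122479852, from Mir17hg to Zic2 (21 genes), was low in the AICAR library alone. Its median was -0.80 after AICAR against 0.06, 0.22, 0.22 and 0.06 in the other 4 lines, and A769662 lay above AICAR in 20 of 21 genes, with medians 2.03-fold apart. Zic2 and Zic5 are in it, so that their levels in AICAR moved with those of their neighbours. In AICAR+LIF, where the run was at 0.06, Zic2 was at 37.5 CPM and Zic5 at 39.8 CPM, still below the other 3 lines (55.9 to 77.0 CPM and 48.7 to 61.2 CPM). The median of 7 genes on chromosome 10 (47941841 to 51989579) stood at -0.43 and 0.64 after AICAR and AICAR+LIF and at -0.24, -0.89 and 1.02 after A769662, A769662+LIF and metformin+LIF. All but 1 of these are predicted genes (Gm symbols), and the remaining one, Ascc3, stayed between -0.23 and 0.26. On chromosome 13 (15463235 to 18645349, 12 genes) the predicted Gm genes had the same high lines (AICAR+LIF and metformin+LIF), while Cdk13, for example, stayed between -0.12 and 0.23. With all genes of chromosomes 12 and 15 and of the 6 runs left out, edgeR called 0 of 12434 genes by side, with 520 at an unadjusted p under 0.05 and a smallest adjusted p of 0.545. Over these genes AICAR+LIF and A769662 again had the highest correlation, at 0.975.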

How the data were processed

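Bulk RNA-seq counts of 22 libraries were used, 5 of them for the comparison. Single reads from a stranded poly(A) kit were aligned by the authors to the Ensembl GRCm38 transcriptome (Bowtie2 2.2.5), and the deposited values are whole counts per gene with no normalization (34489 genes). Transcript-level counts were not used here. Reads of near-identical copies and overlapping genes may be split among them. Positions are from GENCODE annotation on GRCm38 and were found for 98.2% of the genes. Depth was 1689495 to 3380314 counts, and intervals from counts cover counting error only.

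Genes were filtered with filterByExpr (at least 10 counts) and tested with edgeR 4.0.16 (TMM, quasi-likelihood, Benjamini-Hochberg adjustment) in R 4.3.3. DESeq2 1.42.0, limma 3.58.1 (voom), other scalings and filters, thinning to 1689495 counts, LIF as a covariate, more libraries, and each library left out in turn were alternatives. The scripts were tested on simulated data. Figures were drawn with matplotlib 3.10.9. The genes named were the 12 per direction with the smallest p, a mean of at least 8 CPM and no overlap of the sides (none passed the adjusted threshold), the leading members of each gene list and the study's 11 factors, and others are said to be chosen after the data were seen. Fam129a, Ctsc, Cyp2b23, Bmp7, Lama1, Etv1 and, for LIF, Dnmt3b are among the leading genes of their comparisons and were chosen after their values were seen. Members and lists were chosen with earlier results of these data known.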

Additional observations from a re-analysis of the deposited data

Results flagged for a closer look

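Among the 4 AICAR libraries of 2 or 3 passages, a single library lay far from the other 3 in each of 5 measures, by the ratio of its gap to the whole range, and it was not the same library in all 5. AICAR+LIF after 3 passages stood above the others in the chromosome 15 median (ratio 0.903) and Ece1 (0.904). AICAR after 3 passages stood below the others in the chromosome 3 run (0.938) and above them in Zfp42 (0.908) and Nr5a2 (0.845). Zfp42 lies on chromosome 8, whose median over 547 genes was 0.44 in AICAR after 3 passages and -0.039 to 0.010 in the other 3 libraries. Its level there thus moved with that of its chromosome. Chance gives such a ratio in about 1 in 20 groups of like libraries. The measures checked were the medians of chromosomes 12 and 15, the runs of chromosomes 3 and 14 and the 35 named genes. The 4 libraries differ in LIF and passage, so they are not like replicates.

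LIF went with opposite differences, each over 0.5 on the log2 scale, after AICAR and after A769662 in 8 measures. With 1 library per condition these differences were not tested. The genes checked were picked after their values were seen, and all of them met the rule. A gene at one end in both AICAR+LIF and A769662 has such opposite differences by construction. Of the 6 runs, those on chromosomes 3 and 10 met it. On the log2(CPM + 1) scale the difference with LIF was 5.42 after AICAR and -6.44 after A769662 for Egr1, a gap of 11.9. For Fos it was 4.09 and -3.95 (gap 8.05), for Fosb 4.07 and -4.58 (8.65) and for Mid1 2.8 and -5.84 (8.63). Pttg1, the securin gene, had 1.53 and -2.90 (4.42), and Neat1 had -2.26 and 2.35 (gap -4.61). The median of the chromosome 3 run differed by 1.19 and -1.23 (gap 2.41) and that of the chromosome 10 run by 1.07 and -0.66 (1.73).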

How the results depend on the processing

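The count of genes by side, 0 in edgeR, was 3 with DESeq2 and 105 without the filter. The LIF comparison gave 112 without the filter. A769662 against AICAR gave 1 with DESeq2 and 54 without the filter, metformin against AICAR 9 and 240, and metformin against A769662 2 and 233. With each library left out the counts stayed at 0 wherever a fit was possible. Without metformin+LIF no metformin comparison could be fitted. With LIF as a covariate, the count by side was 0 (466 at an unadjusted p under 0.05). The labels give no replicate numbers to pair libraries by. Single-library folds over 2 at a mean of at least 50 CPM numbered 78, 108, 63, 110, 97 and 112, and folds over 1.5 numbered 954, 780, 749, 747, 922 and 918, in the order of the report. The difference in correlation with naive mESCs was 0.00110 by Spearman's rho. Leaving out each library gave -0.00192 to 0.00218 for the similarity of the sides, -0.00179 to 0.00173 for the correlation with naive mESCs, 0.00195 to 0.0139 for that with the early AICAR libraries, and -0.300 to -0.0531 for chromosome 15.

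Of 552 alternative values for 35 named genes, 516 kept their direction and their side of the threshold, 22 passed it (3 in DESeq2, 19 without the filter) and 14 changed direction, all among the study's 11 factors. Leaving out each library in turn gave log2 differences of -0.013 (without AICAR) to 0.18 for Pou5f1, -0.14 (without AICAR) to 0.50 for Nanog, -0.023 (without AICAR) to 0.66 for Zfp42, -0.062 (without AICAR) to 0.29 for Klf4, -0.24 to 0.30 (without AICAR+LIF) for Nr5a2, -0.26 to 0.067 (without metformin+LIF) for Dppa5a and -0.75 to 0.27 (without AICAR) for Dazl. Nr5a2 was at 0.0027 without TMM, 0.010 without the filter and 0.0024 after thinning. The cause of these changes was not tested. At 3 counts, the AICAR library reaches down to 1.68 CPM, and differences between lines below that level were not detectable.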
